A study of Mus musculus with 65 samples.

Results

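The cells described here are HSD2 neurons, taken from a visceral sensory nucleus of the brainstem, the nucleus of the solitary tract (NTS), and divided by whether they carried transcript of Gal, the gene of the neuropeptide galanin. Every one of the 65 single neurons in the series was used. A neuron counted as carrying Gal when its deposited Gal value was above 0, which held for 42 neurons, and the other 23 neurons had a value of 0. The division was therefore made from measured Gal values, so Gal itself is described and not compared, and everything else below is the level of other genes in the 42 and the 23 cells. The mice were males of mixed strain with Cre driven by Hsd11b2 and an Ai9(lox)tdTomato reporter, in which Cre switches on a red protein, and red cells were picked by hand after papain digestion. Cre marks any cell in which the driver was ever active. All 65 cells share this genotype, and their labels differ in diet alone: 33 came from mice labelled standard chow and 32 from mice labelled low sodium. The tissue label is the NTS, whereas the protocol in the labels names Arc-ME as the tissue digested, and the tissue label was followed. No age and no animal is named, so each diet is 1 sample, cells are not replicates of it, and no test was run. Each SD is the spread over cells.

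Galanin is a peptide co-transmitter, made as a precursor, stored in large dense-core vesicles and released beside a fast transmitter. Its receptors are coupled to G proteins, and much of its action on neurons is inhibitory through Gi/o proteins. In the brainstem it is best known from noradrenergic neurons of the locus coeruleus. HSD2 neurons make 11-beta-hydroxysteroid dehydrogenase type 2, which inactivates glucocorticoids so that the mineralocorticoid receptor can respond to aldosterone, and they are known for a role in sodium appetite.

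The start regions of Gal and of Adcyap1, the gene of the neuropeptide PACAP, are shown because Adcyap1 is the other peptide gene whose level differed most between the 42 and the 23 cells. They are RefSeq sequence in build GRCm38.p6, 5' to 3' on the strand of the gene, from 250 bases before the annotated start to 30 bases after it. Capitals mark TGACG, the core of the site bound by CREB, the transcription factor activated by cAMP.
Gal, chr19:3414515-3414794, minus strand: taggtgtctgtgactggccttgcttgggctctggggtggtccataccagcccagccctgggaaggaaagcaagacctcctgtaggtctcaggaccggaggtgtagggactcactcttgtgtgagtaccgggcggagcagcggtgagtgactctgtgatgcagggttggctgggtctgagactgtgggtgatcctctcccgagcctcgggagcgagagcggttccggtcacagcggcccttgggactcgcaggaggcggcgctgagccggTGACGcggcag
Adcyap1, chr17:93198767-93199046, plus strand: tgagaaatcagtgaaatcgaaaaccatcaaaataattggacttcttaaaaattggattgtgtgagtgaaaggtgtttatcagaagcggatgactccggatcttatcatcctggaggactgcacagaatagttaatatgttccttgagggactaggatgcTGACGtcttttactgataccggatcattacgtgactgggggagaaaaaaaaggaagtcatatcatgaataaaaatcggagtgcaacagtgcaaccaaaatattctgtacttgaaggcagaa
Gal has the letters 19 bases after its start, and Adcyap1 has them 91 bases before the start shown. Adcyap1 has another annotated start, and the same letters lie 242 bases before that one. Searched on both strands from 250 bases before to 50 bases after the start, TGACG was present in 19.9% of all 32851 RefSeq windows, and in at least 1 window of 36.8% of the 8186 compared genes with a window. Of the genes counted below as higher or lower in cells with Gal, the shares were 32.2% of 864 and 35.8% of 120. The full site around this core was in neither stretch shown. These matches are letters in a window and not measured sites. The Gal gene lies at chr19:3409915-3414544 on the minus strand and Adcyap1 at chr17:93199017-93206537 on the plus strand (GRCm38, GENCODE M21).

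Gal transcript ran over a wide range in the 42 cells. Its lowest value was 1.16 CPM, its median 96.9 CPM and its highest 4012 CPM, where CPM are the deposited scaled read counts. The highest value was in low-sodium neuron 5, followed by low-sodium neuron 32 at 1184 CPM and chow neuron 18 at 1120 CPM. Low-sodium neuron 5 thus stood well above the next cell. Of the 42 cells, 38 had at least 10 CPM, 21 at least 100 CPM and 3 at least 1000 CPM.

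At the low end, 7 cells had fewer than 10 Gal reads and 3 cells a single read. These 3 were chow neuron 8 at 1.16 CPM, low-sodium neuron 31 at 3.51 CPM and chow neuron 21 at 4.59 CPM. They lie just inside the rule, and the 23 cells just outside it all had 0 reads. A count of 0 allows up to 3 reads, and in the 23 cells those 3 reads stood for 0.481 CPM in the deepest cell (low-sodium neuron 16) to 44.8 CPM in the shallowest (low-sodium neuron 35). In 16 of the 23 cells the limit was under 10 CPM. Conversely, 30 of the 42 cells had more Gal than 44.8 CPM, the highest level that a cell at 0 could hide. When each cell was thinned to 50000 reads, Gal was found in 36 cells. These limits cover counting error only, since no source used here names molecular identifiers.

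Both diets contributed cells to both sides. Gal was above 0 in 23 of 33 chow cells (69.7%, exact Clopper-Pearson 95% interval 51.3 to 84.4%). The low-sodium count was 19 of 32 cells (59.4%, interval 40.6 to 76.3%). The intervals cover counting over cells and not the spread between mice, so the diets' shares are set side by side and not compared. After thinning to 50000 reads the shares were 57.6% and 53.1%. The median level among cells with Gal was 132 CPM in chow and 72.8 CPM in low sodium, and the ranges overlapped.

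Reads per cell were close on the 2 sides. Cells with Gal had 50078 to 4682317 reads in the listed genes, with a median of 660528, and cells without Gal had 50540 to 5319462, with a median of 645984. The number of detected genes was not as close: its median was 8285.5 in cells with Gal (5651 to 11336) and 7906 in cells without (4652 to 10107). The mean was 8323 ± 1381 (SD, n = 42 cells) against 7641 ± 1301 (SD, n = 23 cells). Within chow the medians were 8316 and 7866.5 genes, and within low sodium 8273 and 8017 genes. Of the 42 cells with Gal, 25 lay above the median of all cells in detected genes, as did 7 of the 23 without. CPM summed to more than 1200000 in 9 low-sodium cells, 4 of them with Gal and 5 without, so the scale of their levels differs. Without these 9, median reads were 680370 with Gal and 923996 without, and median detected genes 8241 and 7961.5.

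**Figure D1:**
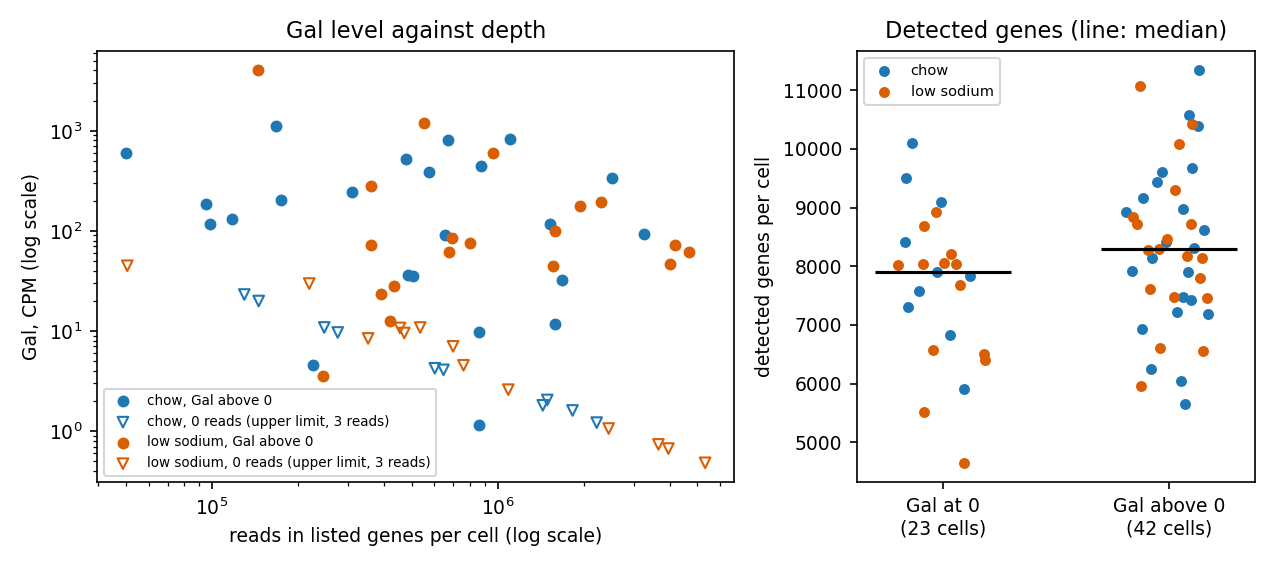
Left, Gal in CPM (log scale) against reads in listed genes per cell (log scale), with filled points for the 42 cells above 0 and open triangles for the 23 cells at 0, placed at the level that 3 reads would give. Right, detected genes per cell on each side, with a line at the median. The reads of cells with and without Gal overlap over nearly their whole range, and the medians of detected genes are 8285.5 and 7906.

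Transcripts of other cell types were found on both sides. A cell was counted when at least 3 markers of 1 type exceeded 10 CPM, over lists for astrocytes, oligodendrocytes and their precursors, microglia, endothelial cells, pericytes with smooth muscle, and ependymal cells. This held for 25 of 42 cells with Gal (59.5%, 43.3 to 74.4%) and for 10 of 23 without (43.5%, 23.2 to 65.5%). Astrocyte markers passed in 16 of 42 against 5 of 23 cells, and ependymal markers in 6 of 42 against 1 of 23. Oligodendrocyte markers passed in like shares, 16 of 42 (38.1%) and 9 of 23 (39.1%). Endothelial markers passed in 3 of 42 and 2 of 23 cells, pericyte and smooth muscle markers in 2 of 42 and 1 of 23, and precursor markers in 0 and 0. The summed CPM of the 12 astrocyte markers ranged from 76.5 to 4708 (median 505) with Gal and from 139 to 2738 (median 383) without. The 7 listed oligodendrocyte markers summed to 0 to 8135 CPM (median 244) with Gal and to 44.7 to 15520 CPM (median 216) without. The 4 ependymal markers summed to 0 to 2515 CPM (median 90.4) and to 0 to 796 CPM (median 46.3). No microglial marker was among the genes analysed here. The 2 sides thus differ in detected genes and in the share of cells with such transcripts, and values without those cells, or with detected genes in the fit, are given where they fall under the limit used below. Their part in those results was not tested. The pan-neuronal list passed in 42 of 42 and 23 of 23 cells. Of other neuron types, the noradrenergic list passed in 17 of 42 and 4 of 23 cells. Of its 5 genes 4 were analysed. Ddc was above 0 in every cell and Th in 5 of 42 and 1 of 23, so passing rested mostly on Dbh with Slc18a2. The GABA and glycine list and the motor or cholinergic list each had 2 genes analysed and could not pass.

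The genes that define these neurons were at similar levels on both sides. Hsd11b2, which gives the neurons their name, ran from 6.42 through a median of 9.03 to 10.68 on the log2(CPM + 1) scale in cells with Gal and from 6.75 through 9.10 to 12.35 in cells without. The difference of the means, with minus without Gal, was -0.28. Every cell on both sides had Hsd11b2 reads. Nr3c2, the mineralocorticoid receptor, was found in 41 of 42 and 21 of 23 cells and differed by 0.05. Agtr1a, the angiotensin II receptor, differed by -0.05. Slc17a6, the vesicular glutamate transporter VGLUT2, was above 0 in all 65 cells and differed by -0.33, with a median of 8.93 against 8.94. Cartpt, the CART peptide precursor, ran from 0 through 8.23 to 10.96 with Gal and from 1.90 through 7.42 to 10.61 without, and differed by 0.31. The ranges overlapped for each of these genes.

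Across all genes, many more were higher than lower in the cells with Gal. A gene was counted as higher or lower when its mean log2(CPM + 1) differed by at least 1 over all cells and the difference had the same sign within chow and within low sodium. Of 10859 genes above 0 in at least 16 cells, 1139 were higher in cells with Gal, a background share of 10.5%, and 149 were lower, a background share of 1.37%. The median difference over the 10859 genes was 0.25, with 0.12 in chow and 0.34 in low-sodium cells. Of the genes counted, 88.4% were higher. The split was different once detected genes entered the comparison. In a fit with diet, reads and detected genes as terms, 517 genes were higher and 437 lower (54.2% higher), and the median difference was 0.01. The within-diet signs required for these counts were those of the differences without the terms. A gene whose sign changed in the fit was therefore not counted. With the differences centred on their median, 581 were higher and 376 lower (60.7% higher), with a pseudocount of 10 CPM 54 and 16 (77.1%), and without the cells carrying markers of other types 1508 and 574 (72.4%). Without the 9 cells of high CPM sums it was 1201 and 214. In chow cells alone, where only a difference of at least 1 was required, the split was 1519 to 684 (69.0% higher). Differences of single genes below are therefore read against a median of 0.25.

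For the genes taken by the naming rule, the cells with and without Gal overlapped in range (141 of 141 genes other than Gal). Of the 47 of these genes counted as higher or lower, 0 had a difference larger than the SD over cells on both sides. Cells at 0 enter each mean, so a difference can lie in the number of cells with reads of the gene or in its level in them, and both are given. Of the same 47, 35 stayed at or past 1 without the cells carrying markers of other types, 37 with detected genes in the fit, and 12 with a pseudocount of 10 CPM.

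**Figure D2:**
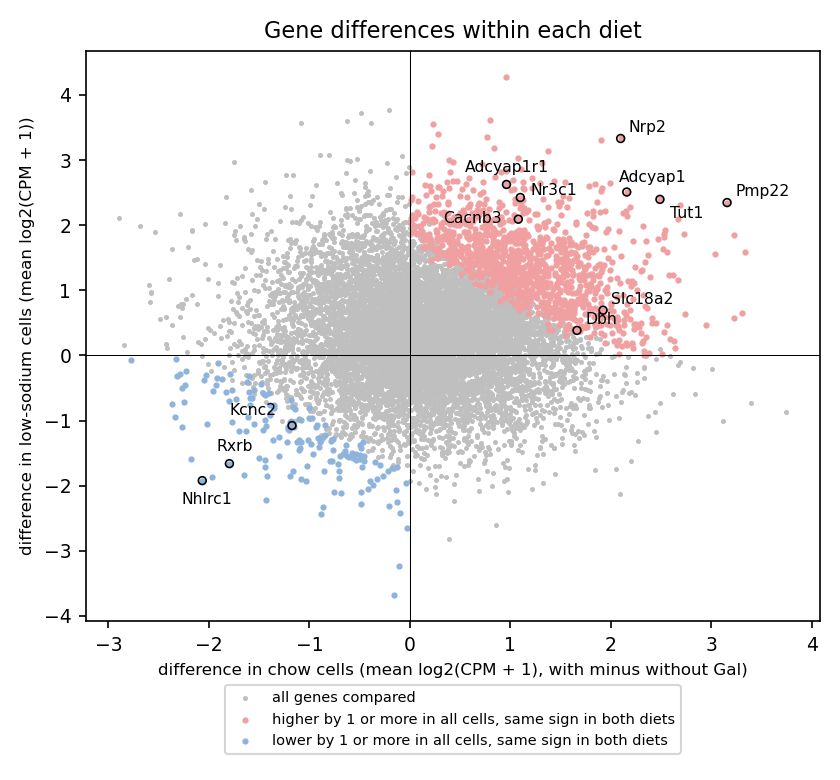
Each point is 1 of the 10859 genes compared, with its difference (mean log2(CPM + 1), with minus without Gal) in the chow cells on the x axis and in the low-sodium cells on the y axis. The 1139 genes counted as higher and the 149 counted as lower are coloured, and circled genes are named. The cloud is wide in both directions, and the coloured genes lie mostly in the upper right.

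Among peptide precursors, Adcyap1 had the largest difference. PACAP, its product, is a peptide that raises cAMP through its receptor PAC1. Adcyap1 was above 0 in 22 of 42 cells with Gal (52.4%) and in 3 of 23 without (13.0%). Its values ran from 0 through a median of 1.11 to 8.89 with Gal and from 0 through 0 to 5.86 without, on the log2(CPM + 1) scale. The mean was 2.86 ± 3.30 (SD, n = 42 cells) against 0.56 ± 1.59 (SD, n = 23 cells), a difference of 2.30. It was higher within chow (2.16, 9 of 23 against 1 of 10 cells) and within low sodium (2.51, 13 of 19 against 2 of 13 cells). The 3 cells without Gal that had Adcyap1 were chow neuron 33 at 28.8 CPM, low-sodium neuron 18 at 57.1 CPM and low-sodium neuron 7 at 3.03 CPM. Thinned to 50000 reads, Adcyap1 was seen in 17 and 2 cells.

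Among the cells without markers of other cell types, Adcyap1 was above 0 in 6 of 17 cells with Gal and in 0 of 13 without, and the difference was 1.22. With detected genes in the fit it was 1.88. Within the 42 cells, the 22 with Adcyap1 had a median Gal of 186 CPM (9.72 to 4012) and the 20 without it a median of 88.2 CPM (1.16 to 596). Depth differed between these as well, with medians of 915896 and 456192 reads, and the part of depth in the Gal difference was not tested.

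Adcyap1r1, which encodes PAC1, was also higher. It was above 0 in 24 of 42 cells with Gal and 8 of 23 without, with a median of 3.01 (0 to 8.98) against 0 (0 to 7.05). The difference was 1.88 (0.96 within chow, 2.63 within low sodium). Without cells carrying markers of other types it was 0.85, with 7 of 17 against 4 of 13 cells, and with detected genes in the fit 1.24. Ligand and receptor transcripts occurred together in 17 of the 42 cells with Gal and in 0 of the 23 without, where 11 had at least 1 of the pair. Singly, Adcyap1 was in 22 and 3 cells and Adcyap1r1 in 24 and 8. At most 3 of the 23 could thus have held both, and joint occurrence beyond these counts was not tested.

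The remaining peptide genes moved less. Of 11 precursor genes compared, 2 were higher (Adcyap1 and Pomc) and 0 lower, against the 10.5% and 1.37% of all genes, and the list's median was 0.32. Pomc, the precursor of melanocortins and beta-endorphin, was above 0 in 24 of 42 and 7 of 23 cells and differed by 1.20, with a median of 2.37 against 0. Thinned to 50000 reads its difference was 0.74. Nxph4, a secreted neurexophilin and one of the abundant peptide-like transcripts here, was the precursor with the most negative difference at -0.98. Its difference was -0.16 within chow and -1.68 within low sodium. The other members of the galanin system on the list (Galp, Galr1, Galr2 and Galr3) were not analysed here.

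Genes for storing and cutting peptides stayed under the limit. Of 28 genes of granins, convertases and dense-core vesicle release compared, 0 were higher and 0 lower, against 10.5% and 1.37% of all genes, and the median was -0.05 against 0.25 for all genes. Ica1, a dense-core vesicle protein, had the most positive difference at 0.91. Pcsk6, a convertase, had the most negative at -0.93, with -1.67 in chow and -0.42 in low sodium. It was above 0 in 9 of 42 and 8 of 23 cells. Furin, another convertase, differed by -0.83, with 0.20 in chow and -1.83 in low sodium.

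Among monoamine genes, Slc18a2 and Dbh were higher. Slc18a2, the vesicular monoamine transporter VMAT2, was above 0 in 29 of 42 cells with Gal and 10 of 23 without. Its values ran from 0 through 4.48 to 6.82 and from 0 through 0 to 6.97, and the difference was 1.29 (1.92 in chow, 0.69 in low sodium). Dbh, the enzyme that makes noradrenaline from dopamine, was above 0 in 22 and 9 cells. It ran from 0 through 4.02 to 10.75 with Gal and from 0 through 0 to 11.41 without. The difference was 1.05, most of it from chow (1.66 against 0.38 in low sodium). Mean Dbh in linear CPM went the other way, 269 with Gal against 356 without, and single cells on both sides carried high levels.

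For Ddc and Th, which act upstream of Dbh, the differences were smaller. Ddc, which makes dopamine from L-DOPA, was above 0 in all 65 cells and differed by -0.22. Th, which makes L-DOPA and is the defining enzyme of catecholamine neurons, was above 0 in 5 of 42 and 1 of 23 cells. It differed by 0.27, with -0.11 in chow and 0.55 in low sodium. Dbh and Slc18a2 occurred in the same cell in 15 of 42 cells with Gal and in 4 of 23 without. Singly, Dbh was in 22 and 9 cells and Slc18a2 in 29 and 10, and joint occurrence beyond these counts was not tested. Of 12 genes of monoamine synthesis and storage compared, these 2 were higher and 0 lower, against 10.5% and 1.37% of all genes. Spr had the most negative difference on the list at -0.92, with -0.54 in chow and -1.17 in low sodium. The list median was 0.23, and it was -0.05 within chow and -0.066 without high CPM sums.

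Slc18a3, the vesicular acetylcholine transporter, was found in few cells, nearly all with Gal. It was above 0 in 11 of 42 cells with Gal (26.2%, 13.9 to 42.0%) and in 1 of 23 without (4.35%, 0.110 to 21.9%). It was too rare for the comparison across genes, which needed 16 cells, and it was singled out after its values were seen. The 11 cells ranged up to 9.57, and the 1 cell without Gal, chow neuron 55, had 1.77. The difference was 1.62, with 1.64 in chow and 1.54 in low sodium. In cells without markers of other types it was seen in 3 of 17 and 0 of 13. The gene lies at chr14:32462438-32464850 inside the Chat locus (chr14:32408203-32465989), on the same strand, so reads of the shared stretch cannot be told apart. Chat, choline acetyltransferase, was above 0 in 8 of 42 and 4 of 23 cells and differed by 0.41. Adcyap1 was present in 8 of the 11 cells with both Gal and Slc18a3, and in 22 of all 42 cells with Gal.

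**Figure D3:**
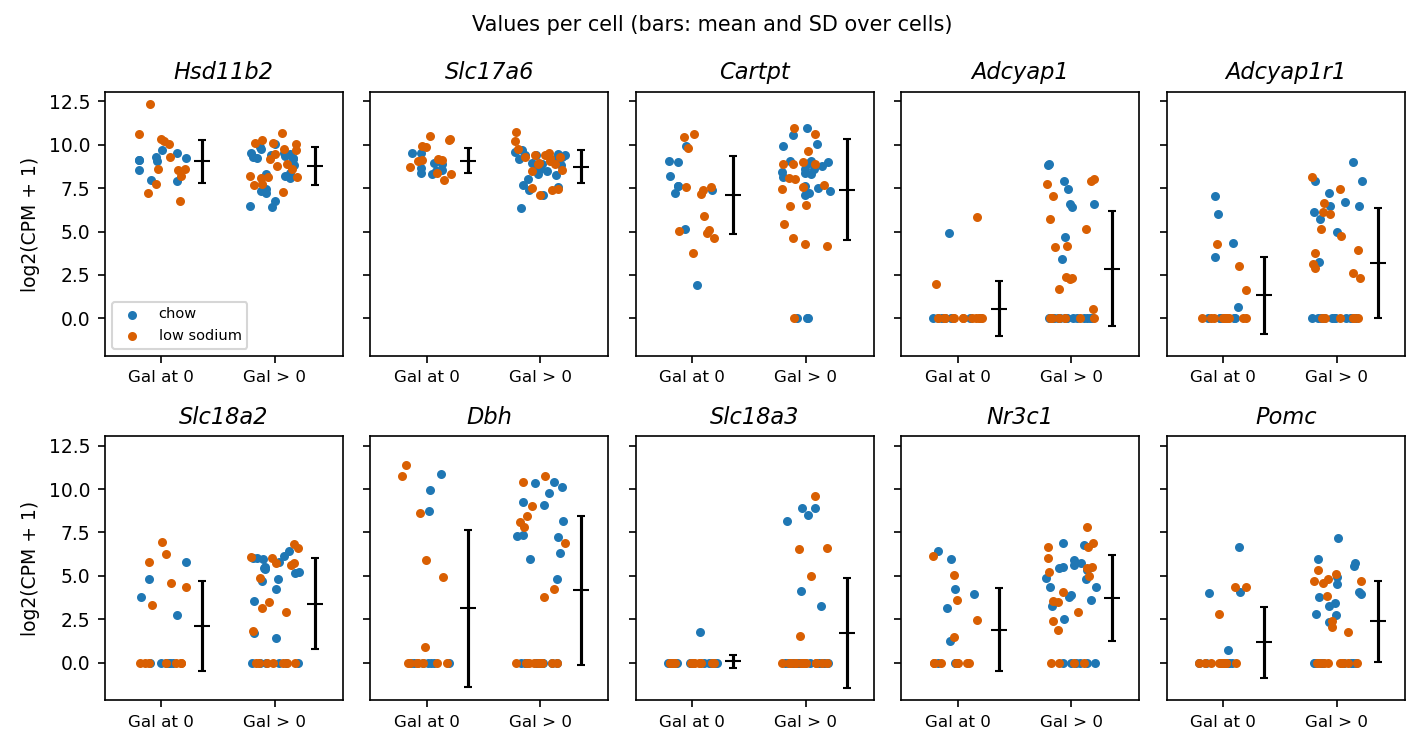
Values of 10 genes in each of the 65 cells on the log2(CPM + 1) scale, by side (Gal at 0, Gal above 0) and diet (colour), with bars for the mean and SD over cells. Hsd11b2, Slc17a6 and Cartpt are similar on both sides, and the other genes have more cells above 0 on the Gal side, as with Adcyap1 in 22 of 42 against 3 of 23 cells.

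Nr3c1, the glucocorticoid receptor, had a larger difference than the mineralocorticoid receptor gene. It was above 0 in 32 of 42 cells with Gal and 11 of 23 without, with a median of 4.20 (0 to 7.81) against 0 (0 to 6.42). The difference was 1.82 (1.10 within chow, 2.42 within low sodium). It was 1.94 without cells carrying markers of other types and 1.20 with detected genes in the fit. Nedd4l, a ubiquitin ligase that acts on epithelial sodium channels downstream of aldosterone, differed by 1.06, with 0.27 in chow and 1.79 in low sodium, and by 0.81 with detected genes in the fit. These were 2 of 12 genes compared on the aldosterone and angiotensin list and 0 were lower, against 10.5% and 1.37% of all genes, and the list's median was 0.14. Fkbp5, a glucocorticoid-responsive gene, differed by -0.54.

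Receptors for other peptides and hormones gave 3 higher of 13 compared and 0 lower, against 10.5% and 1.37% of all genes. Their median was 0.24, and -0.12 both within chow and with detected genes in the fit. Besides Adcyap1r1 they were Ramp1, an accessory subunit of the CGRP receptor, and Igf1r, the IGF-1 receptor. Ramp1 was above 0 in 20 of 42 and 7 of 23 cells and differed by 1.69 (1.14 in chow, 1.92 in low sodium). Igf1r was above 0 in 38 and 17 cells and differed by 1.46. It was named after its values were seen. Sstr1, a somatostatin receptor, and Prlr, the prolactin receptor, both differed by -0.89, under the limit of 1. After thinning their differences were -0.14 and -0.04.

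Ion channel genes went both ways. Hcn3, a pacemaker channel, was above 0 in 39 of 42 cells with Gal and 17 of 23 without, and differed by 1.42 (0.84 with detected genes in the fit). Of 24 sodium, HCN and leak channel genes compared, 2 were higher and 0 lower, against 10.5% and 1.37% of all genes. Cacnb3, an auxiliary calcium channel subunit, was in 36 and 14 cells, with medians of 5.85 and 4.34, and differed by 1.75.

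Potassium channels on the higher side were Kcnd3, an A-type channel (1.51), Kcnn2, the calcium-activated SK2 channel (28 of 42 against 8 of 23 cells), Kcnh7 (1.06) and Kcnt1 (1.11), which are 4 of 34 compared against 10.5% of all genes. Without cells carrying markers of other types the difference of Kcnd3 was 0.13, that of Kcnn2 0.84 and that of Kcnh7 0.60. With detected genes in the fit Kcnd3 differed by 0.87, Kcnh7 by 0.65 and Kcnt1 by 0.43. On the lower side, Kcnc2, a fast delayed rectifier (Kv3.2), ran from 0 through 7.49 to 10.90 with Gal and from 5.78 through 8.22 to 11.68 without, and differed by -1.21 (-1.17 in chow, -1.08 in low sodium). Kcnc2 was above 0 in 41 of 42 and 23 of 23 cells, so its difference lies in level more than in presence. Cacna1i, the T-type calcium channel Cav3.3, differed by -1.08, and by -0.37 without cells carrying markers of other types. Of 14 calcium channel genes compared, 1 was higher and 1 lower, against 10.5% and 1.37% of all genes. Kcnh7 and Kcnt1 were named after their values were seen.

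Signalling downstream of PACAP and galanin receptors was sampled by the cAMP and Gi/o lists. Of 32 cAMP and CREB genes, 3 were higher and 0 lower, near the 10.5% and 1.37% of all genes, with a median of 0.21. They were Adcy3, an adenylyl cyclase (1.30), and, named after their values were seen, Adcy2, another cyclase (1.25, but 0.04 in low sodium), and Crtc2, a CREB co-activator (1.00). With detected genes in the fit Adcy2 differed by 0.73 and Crtc2 by 0.76. Pde4b, a cAMP phosphodiesterase, was above 0 in 36 of 42 and all 23 cells and differed by -0.97. Pde1a differed by 1.29 but had opposite signs in the 2 diets, -1.08 in chow and 3.58 in low sodium. Of 24 Gi/o and GIRK genes, 1 was higher and 0 lower, against 10.5% and 1.37% of all genes. The higher gene was Gpsm1, a regulator of Gi alpha subunits, at 1.10, and at 0.65 with detected genes in the fit. Kcnj9, the GIRK3 channel subunit, differed by -0.93.

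Transcription factors of the hindbrain had 5 higher of 34 compared and 0 lower, against 10.5% and 1.37% of all genes, with a median of 0.31. Satb1, a chromatin organiser, was in 19 of 42 and 4 of 23 cells and differed by 1.30, and by 0.78 with detected genes in the fit. Meis2, a homeodomain factor, was in 15 and 4 cells and differed by 1.35, and by 0.55 without cells carrying markers of other types. Ebf1 (1.19), Rfx3 (1.12) and Tfap2b (1.09) complete the 5, and those 3 were named after their values were seen. With detected genes in the fit they differed by 0.68, 0.45 and 0.35, and Meis2 by 0.66. The abundant factor Hoxb5 was found in every cell and differed by -0.65. The list's median was near 0 within chow and 0.74 within low sodium.

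Of 21 immediate early genes compared, Arc (1.15) and Npas4 (1.03), both induced by activity, were higher and 0 were lower, near the 10.5% and 1.37% of all genes. The list's median was 0.34, with 16 of 21 genes above 0, and it was -0.061 without cells carrying markers of other types and 0.57 without high CPM sums. Arc was in 18 of 42 and 6 of 23 cells, and Npas4 in 24 and 7, and Npas4 differed by 0.60 with detected genes in the fit. Without high CPM sums Arc differed by 0.71 and Npas4 by 0.88. Jun, which responds to dissociation as well as to activity, differed by -0.58, with opposite signs in the diets (-1.20 in chow, 0.15 in low sodium). Of 24 genes of cytokine receptors and injury, 4 were higher and 0 lower, against 10.5% and 1.37% of all genes. Their median was 0.34, and 0.0066 without cells carrying markers of other types. Csrp1 differed by 1.46, although its mean in linear CPM was lower with Gal (46.0 against 81.2), and Sox11 by 1.24. With detected genes in the fit Csrp1 differed by 0.98 and Sox11 by 0.81, and without cells carrying markers of other types Sox11 differed by 0.92. Socs2 (1.09) and Stat5b (1.04) were named after their values were seen, and differed by 0.87 and 0.84 in that fit. Of 16 heat shock and dissociation genes, 0 were higher and 0 lower, against 10.5% and 1.37% of all genes, with a median of 0.05.

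Lists that read RNA quality and neuronal content had no gene past this limit, against 10.5% of all genes higher and 1.37% lower. Of 52 ribosomal protein genes, 0 were higher or lower, with a median of 0.26, but that median was -0.10 within chow, 0.50 within low sodium and 0.041 without the 9 low-sodium cells whose CPM summed to more than 1200000. Of 65 oxidative phosphorylation genes, 0 were higher or lower, with a median of 0.21. Of 11 pan-neuronal genes, 0 were higher or lower, with a median of -0.17. The astrocyte markers had a median of 0.64 over 8 genes compared, with Fgfr3 higher (1.19), and a median of -0.080 once cells with markers of other types were left out. Fgfr3 then differed by 0.00, and by 0.70 over all cells with detected genes in the fit.

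**Figure D4:**
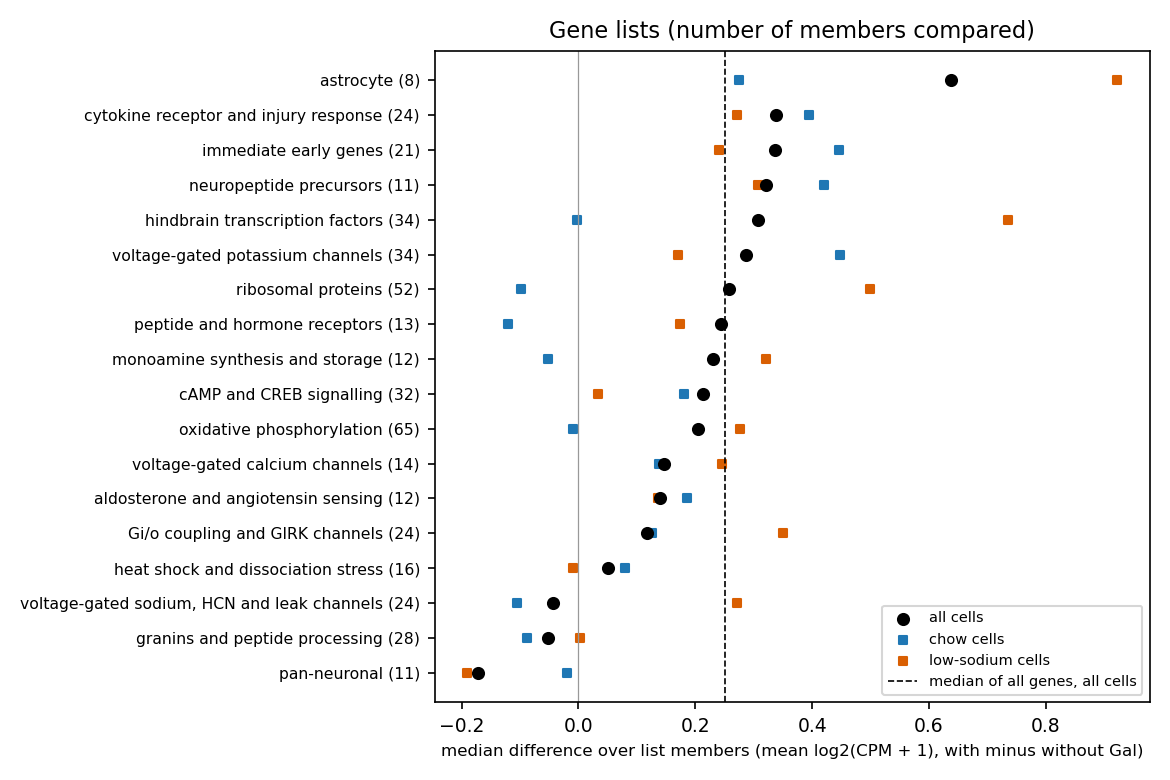
Median difference (mean log2(CPM + 1), with minus without Gal) over the compared members of each gene list with at least 8 compared members, in all cells (black), chow cells (blue) and low-sodium cells (orange), with a dashed line at 0.25, the median of all genes. List medians over all cells run from -0.17 for pan-neuronal genes to 0.64 for astrocyte markers, and for several lists the 2 diets lie on different sides of the dashed line.

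Ranked by the smaller of the 2 within-diet differences, the 12 genes with the largest values were Tut1, Pmp22, Capn5, Ppip5k1, Adcyap1, Ncam2, Arhgef40, Nrp2, Trafd1, Ago3, Prkca and Gpr39. These were chosen for their size, so their values are a description. Nrp2, a co-receptor for semaphorins and VEGF, was above 0 in 24 of 42 cells with Gal and 2 of 23 without, and differed by 2.64 (2.10 in chow, 3.33 in low sodium). Pmp22, a myelin and membrane protein, was in 32 and 10 cells, with medians of 6.07 and 0, and differed by 2.67. Ncam2, a cell adhesion molecule, was in 28 and 6 cells and differed by 2.13. Gpr39, a zinc-sensing receptor, was in 18 and 2 cells and differed by 1.91.

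For 5 of the 12 the difference shrank without the cells carrying markers of other types, to 0.71 for Ncam2, 0.76 for Gpr39, 1.08 for Prkca, 1.22 for Adcyap1 and 1.30 for Nrp2. In those cells Nrp2 was seen in 3 of 17 and 0 of 13. For the other 7 it was larger, reaching 4.16 for Pmp22, 3.13 for Trafd1 and 3.05 for Tut1. Prkca encodes protein kinase C alpha, Ppip5k1 an inositol pyrophosphate kinase, Capn5 a calpain protease, Ago3 an Argonaute protein and Tut1 a terminal uridylyltransferase. Ppip5k1 (39 against 14 cells) and Trafd1 (39 against 13 cells) were present in nearly every cell with Gal.

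The 12 most negative were Nhlrc1, Rad1, Rxrb, Zkscan6, Lipt2, Ftsj3, Fam43a, Btbd6, Mapk14, Pomt1, Itgb3bp and Adamts20. Nhlrc1, the ubiquitin ligase malin, was above 0 in 30 of 42 cells with Gal and in all 23 without. It ran from 0 through 4.98 to 8.42 and from 1.64 through 6.14 to 7.87, and differed by -1.94 (-2.07 in chow, -1.92 in low sodium). Rxrb, the retinoid X receptor beta, was in 20 and 17 cells and differed by -1.73. Mapk14, the p38 alpha kinase, was in 26 and 17 cells and differed by -1.30. Rad1, part of a DNA damage checkpoint clamp, was in 21 and 19 cells and differed by -1.85. With detected genes in the fit these 4 differed by -2.07, -1.89, -1.88 and -2.41. Without cells carrying markers of other types they differed by -1.52, -0.74, -1.39 and -1.91, and Rxrb was then in 10 of 17 against 8 of 13 cells. In the same cells Btbd6 differed by -0.84, in place of -1.43.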

How the data were processed

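Single cells were made into libraries of polyA RNA with Smart-Seq2 and Nextera XT, per the labels' protocols. The submitters' processing notes name featureCounts 1.4.6, HISAT2 2.0.5, SAMtools 0.1.19, Picard 2.5.0 and bcl2fastq, and the builds GRCm38 and mm10. The settings, annotation, use of strand and scaling total were not given in the sources used here. What the authors deposited is a table of log2(CPM + 1) with 12015 lines, each above 0 in at least 5 cells. After lines with shared or serial names were left out, 11875 genes were used. CPM were had by undoing the log2, and values up to 1e-06 CPM counted as 0. One read was the smallest CPM step of a cell: 100% of the values up to 20 steps were whole multiples within 0.1 steps. CPM summed to more than 1200000 in 9 low-sodium cells, 4 with Gal and 5 without, so their scale differs from that of the others.

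Differences are of mean log2(CPM + 1), with a pseudocount of 1 CPM that shrinks differences of low genes, for genes found in 16 or more of the 65 cells. No p-value is given. The division, the 29 gene lists and the naming rule were chosen with earlier results of these data known. The rule took the 12 highest and 12 lowest genes ranked by the smaller within-diet difference (predicted models left out, same sign after thinning and without the 9 cells), up to 4 members of each list, a panel of identity genes and the 5 genes at each end of the rank correlation with Gal. Not every gene it took is reported here. Computation used Python 3.11.15, numpy 2.4.6, pandas 2.3.3, scipy 1.17.1 and matplotlib 3.10.9. The comparison was also run on simulated counts with known changes, as a check of the computation. Those counts were given no difference between the sides in detected genes or in markers of other cell types. They therefore cannot show how far the gene counts reported here depend on either. Alternatives were other pseudocounts, thinning to 50000 reads (seed 1), fits with covariates, size factors, a Gal limit of 10 CPM, other filters on genes, and leaving cells out.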

Additional observations from a re-analysis of the deposited data

How the results depend on the processing

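No paired analysis was possible because the numbers in the labels name single cells and pair none, and because no result comes from a test. The counts of 1139 higher and 149 lower genes moved by more than 1.5 times under these settings: a pseudocount of 10 CPM gave 54 and 16, a pseudocount of 0.1 CPM 2353 and 349, low-sodium cells alone 2292 and 496, and, both chosen after seeing the data, the fit with diet, reads and detected genes 517 and 437 and centring on the median 581 and 376. The lower count alone moved to 243 with every cell thinned to 50000 reads, to 574 without cells carrying markers of other types, and to 684 in chow cells alone. Counts in chow or low-sodium cells alone used a looser rule. They required a difference of at least 1 but not the same sign in both diets. In the fit, the within-diet signs required were those of the differences without its terms. Leaving out 1 cell at a time, also added later, gave 980 to 1372 higher and 130 to 225 lower genes, and 225 was the count without low-sodium neuron 35, the shallowest cell without Gal. Without low-sodium neuron 5, which had the highest Gal and was left out by a later choice, the counts were 1149 and 146. Of list medians, ribosomal proteins moved from 0.26 to 0.041 without high CPM sums, -0.10 in chow and 0.50 in low sodium, oxidative phosphorylation to -0.0087 in chow, and astrocyte markers from 0.64 to -0.080 without cells carrying markers of other types and 0.10 with detected genes in the fit. Other list medians shifted as well. Without cells carrying markers of other types, injury genes went from 0.34 to 0.0066 and immediate early genes from 0.34 to -0.061. In chow, monoamine genes went from 0.23 to -0.05 and peptide and hormone receptors from 0.24 to -0.12. Oxidative phosphorylation went from 0.21 to 0.048 without high CPM sums. Of the 517 genes higher in the fit with detected genes, 507 were among the 1139, and 834 of the 1139 were higher after thinning. The 47 genes of the naming rule counted as higher or lower had the same sign of the difference of mean log2 values in every setting run, while in mean linear CPM 2 of them (Dbh and Csrp1) had the other sign. Part of this agreement was fixed by selection. The count itself required the same sign within each diet. For the 12 highest and 12 lowest genes, the same sign after thinning and without high CPM sums was also required. Of the 47, 39 stayed at or past 1 after thinning, 39 without high CPM sums, 35 without cells carrying markers of other types, 37 with detected genes in the fit, 37 in chow cells alone and 12 with a pseudocount of 10 CPM. The causes were not tested. Shallow cells limit every share given: in them a transcript under the level of a few reads is read as 0.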

Other observations

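Among the 42 cells with Gal, the level of Gal was ranked against that of each of 6195 genes above 0 in at least 32 of these cells. The highest Spearman rho were 0.59 for Stard3nl, a late endosomal protein, 0.59 for AK171960, 0.50 for Micu3, a regulator of mitochondrial calcium uptake, 0.50 for Ubxn4 and 0.49 for Psmb7, a proteasome subunit. The lowest were -0.61 for Cpne7, a copine, -0.56 for Ddb1, a DNA repair and ubiquitin ligase adaptor, and -0.54 each for Rps6kl1, Gpsm1 and Rph3a, the vesicle protein rabphilin. The points share library and scale, and the ends of so many ranked genes are extreme by selection, so the values are a description. Gal ranked against reads per cell at -0.17 and against detected genes at 0.25. Gpsm1 was among the genes higher in cells with Gal (1.10), while within those cells it was lower where Gal was higher. Cells with Gal and Dbh had a median of 147 CPM Gal (22 cells) and those without Dbh 41.1 CPM (20 cells), with median reads of 663024 and 623432 and fewer detected genes on the Dbh side (7910.5 against 8518.5).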
